A study of Mus musculus with 9 samples.

Results

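Type I interferon-stimulated genes were followed in livers of mice with acute liver injury. The set held 46 genes that are known to be induced by type I interferon, picked by symbol. Each symbol matched 1 of the 34745 gene rows of the deposited table, and all 46 passed the filter on low counts that left 13583 genes for testing. They were sorted by role into 11 nucleic acid sensors, 22 effectors and 13 signal regulators.

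The labels name mRNA isolation from total liver RNA before Illumina library preparation. The mice were male C57BL/6 animals aged 6 to 8 weeks, with no genetic change given, in 3 groups of 3 libraries: Ctrl, D-gal-LPS and WZB-D-gal-LPS. In this model D-gal is commonly D-galactosamine, which blocks transcription in hepatocytes, and LPS is lipopolysaccharide, a bacterial ligand of the receptor TLR4. WZB is not spelled out in the labels, while the design text speaks of pretreatment with GLUT1 inhibitors, which act on a glucose transporter. Doses, times, routes and what the Ctrl group received were not given in the sources used here. Nothing in the labels tells whether the libraries of a group are separate mice, so each p-value speaks of the spread among these libraries, which may be technical. Libraries held 15072509 to 18106895 counts. The liver label was checked with 10 hepatocyte markers, Alb among them, whose summed level was 94900 to 96600 CPM in Ctrl, 112000 to 115000 CPM in D-gal-LPS and 145000 to 155000 CPM in WZB-D-gal-LPS (CPM, counts per gene after TMM scaling to equal library size). Without Alb, the most abundant, the sums were 42700 to 45100 CPM in Ctrl, 40100 to 43200 in D-gal-LPS and 53900 to 57200 in WZB-D-gal-LPS. The sum of the other markers thus overlapped between Ctrl and D-gal-LPS.

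Type I interferons are secreted when pattern receptors such as TLR4, acting through the adaptor TRIF, switch on the transcription factor IRF3. They bind the receptor IFNAR, whose kinases JAK1 and TYK2 phosphorylate STAT2, which joins IRF9 in the complex ISGF3, and this binds interferon-stimulated response elements before target genes. In the liver, Kupffer cells, endothelial cells, infiltrating leukocytes and hepatocytes can all answer interferon, and many of the same genes also answer interferon-gamma or IRF3 directly.

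The response element was looked for before the genes, and the stretches shown are those of every member whose window held a match. RefSeq windows of 250 bases before the start site (GRCm38.p6) were at hand for 36 of the 46 genes. A core of GAAA, 2 bases of any kind and GAAA was searched on both strands, and overlapping matches were counted separately. It was found in 12 of the 36 windows (33.3%) and in 978 of 32851 windows of all genes (2.98%). The 24 windows without a match included those of Cmpk2, Irf7, Herc6, Oasl2, Ifih1 and Ddx58. By role, 3 of 7 sensors, 7 of 19 effectors and 2 of 10 signal regulators held it. Some start sites lay away from the deposited gene start, by 3001 bases for Rnf213, 414 for Irf9, 286 for Nmi, 133 for Lgals3bp and 124 for Dtx3l. None of these windows held a match, and the shares by role may be affected. Each stretch below runs 5′ to 3′ on the strand of its gene and ends before the start site, with the bases of the matches in capitals. TTTC, 2 bases and TTTC is the same core read on the other strand.

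Sensors, of which Oas3 had the largest rise of all 46 genes and Oas1a and Oas1g are close copies:
Oas1a: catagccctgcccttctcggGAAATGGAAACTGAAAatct
Oas1g: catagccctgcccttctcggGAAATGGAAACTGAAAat
Oas3: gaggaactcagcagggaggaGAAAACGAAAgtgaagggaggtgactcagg

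Effectors that rose, with Bst2, which rose least among them:
Ifit1: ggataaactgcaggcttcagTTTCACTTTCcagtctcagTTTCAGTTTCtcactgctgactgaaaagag
Ifit3: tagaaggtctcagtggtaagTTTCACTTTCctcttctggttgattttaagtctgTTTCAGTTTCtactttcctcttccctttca
Rsad2: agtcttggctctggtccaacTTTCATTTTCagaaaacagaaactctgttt
Isg15: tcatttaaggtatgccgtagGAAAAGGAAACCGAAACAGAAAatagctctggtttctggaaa
Bst2: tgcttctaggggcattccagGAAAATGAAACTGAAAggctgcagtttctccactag

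Effectors that fell with D-gal-LPS:
Apol9a: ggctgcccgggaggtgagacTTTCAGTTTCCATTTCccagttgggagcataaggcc
Apol9b: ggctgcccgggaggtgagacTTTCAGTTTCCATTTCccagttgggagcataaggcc

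Signal regulators, Trim30a with the largest rise of its role and Stat2, for which no rise was called:
Trim30a: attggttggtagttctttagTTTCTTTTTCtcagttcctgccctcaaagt
Stat2: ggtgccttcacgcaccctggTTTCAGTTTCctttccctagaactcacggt

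These stretches lie in GRCm38.p6 as follows: Oas1a at chr5:120907526-120907565 (minus strand), Oas1g at chr5:120887614-120887651 (minus strand), Oas3 at chr5:120777705-120777754 (minus strand), Ifit1 at chr19:34640765-34640833 (plus strand), Ifit3 at chr19:34583353-34583436 (plus strand), Rsad2 at chr12:26456543-26456592 (minus strand). The others are Isg15 at chr4:156200855-156200916 (minus strand), Bst2 at chr8:71537567-71537622 (minus strand), Apol9a at chr15:77411104-77411159 (minus strand), Apol9b at chr15:77729015-77729070 (plus strand), Trim30a at chr7:104465200-104465249 (minus strand) and Stat2 at chr10:128270256-128270305 (plus strand). The Apol9a and Apol9b stretches were identical over all 56 bases, and those of Oas1a and Oas1g over 38. Isg15 held 3 overlapping matches, the most of those printed. The gamma-activated site TTCNNNGAA was in 5 of the 36 windows (13.9%) and in 7.02% of all windows. A match is a description of letters and not a shown binding site. Genes with a core match had a median log2 fold change of 3.72 with D-gal-LPS (n = 12, range -1.34 to 6.37), and those without one had 2.24 (n = 24, range 0.23 to 4.95). With WZB added, the medians were -1.04 with a match and -0.96 without.

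With D-gal-LPS, 40 of the 46 genes rose, Apol9a and Apol9b fell, and Ifit2, Irf9, Stat2 and Trim25 were not called (edgeR's quasi-likelihood test, adjusted p under 0.05). Of all tested genes, 29.1% rose and 29.3% fell. The rise was at least 2-fold for 34 of the genes, against 18.1% of all tested genes. The median log2 fold change of the 46 genes was 2.56, beside -0.03 over all tested genes. All 3 D-gal-LPS libraries lay above all 3 Ctrl libraries for 42 genes, which held for 32.4% of all tested genes.

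With WZB given as well, 39 of the 46 genes were lower than with D-gal-LPS alone. The other 7 were not called, and 14.7% of all tested genes were lower. At least 2-fold falls were found for 19 genes, against 4.48% of all tested genes. The median log2 fold change was -0.99, beside -0.02 over all tested genes. Bst2 was the single member with a positive value, 0.14, which was -0.06 with total-count scaling. All 3 WZB-D-gal-LPS libraries lay below all 3 D-gal-LPS libraries for 43 genes, which held for 24% of all tested genes. Over all tested genes, 1873 were higher and 2001 lower, a split that became 2358 and 1643 when upper quartile factors were used and 850 and 3290 under total-count scaling, where the median of all genes was -0.220.

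Against Ctrl, 35 of the 46 genes were still higher in WZB-D-gal-LPS, Apol9a, Apol9b and Stat2 were lower, and 8 were not called. Of all tested genes, 32.6% were higher and 28% lower in that comparison. The median log2 fold change of the 46 genes was 1.48, beside 0.07 over all tested genes. Over all tested genes 4430 were higher and 3806 lower, and with total-count scaling 3248 and 5061. There were 37 genes that rose with D-gal-LPS and were lower again with WZB, as did 9.81% of all tested genes, and 32 of these remained above Ctrl, as did 7.43%. The 3 comparisons share libraries, so these values are set side by side and not tested against each other.

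**Figure D1:**
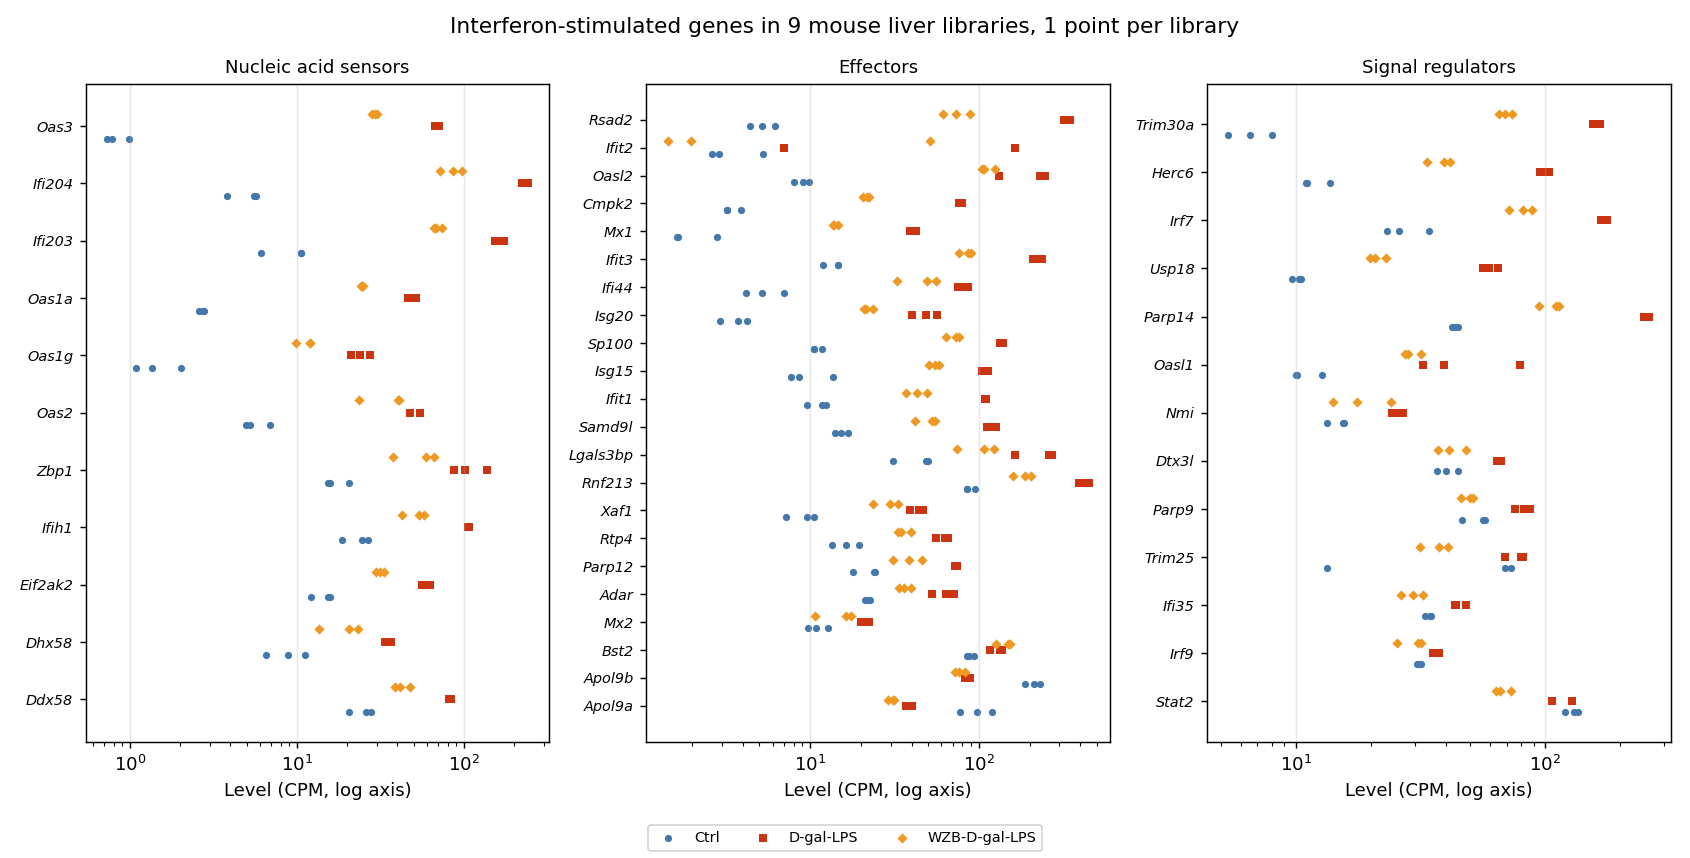
Level of each of the 46 genes in each library, in CPM on a log axis, 1 point per library, with genes sorted by role and by the size of their rise. Circles are Ctrl, squares D-gal-LPS and diamonds WZB-D-gal-LPS, and for most genes the diamonds lie between the other two, while Apol9a and Apol9b are highest in Ctrl and Ifit2 is scattered.

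The genes took 0.131, 0.153 and 0.130% of all counts in the Ctrl libraries. They took 0.504, 0.498 and 0.546% in D-gal-LPS and 0.222, 0.187 and 0.232% in WZB-D-gal-LPS. The shares of the 3 groups did not overlap. Within the injured groups the genes tended to stand high or low in the same library: D-gal-LPS replicate 3 was highest of its group for 28 genes and replicate 2 lowest for 29, while WZB-D-gal-LPS replicate 2 was lowest for 35 and replicate 3 highest for 26. These counts were not made over all tested genes, so a shift of a whole library cannot be told from a trait of these genes. The median coefficient of variation among 3 libraries was 14.5% in Ctrl, 5.77% in D-gal-LPS and 10.6% in WZB-D-gal-LPS. Per length, the median level of the 46 genes was 2.54 FPKM (fragments scaled by gene length and library size, as deposited by the authors) in Ctrl, 17.95 FPKM in D-gal-LPS and 6.795 FPKM in WZB-D-gal-LPS.

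**Figure D2:**
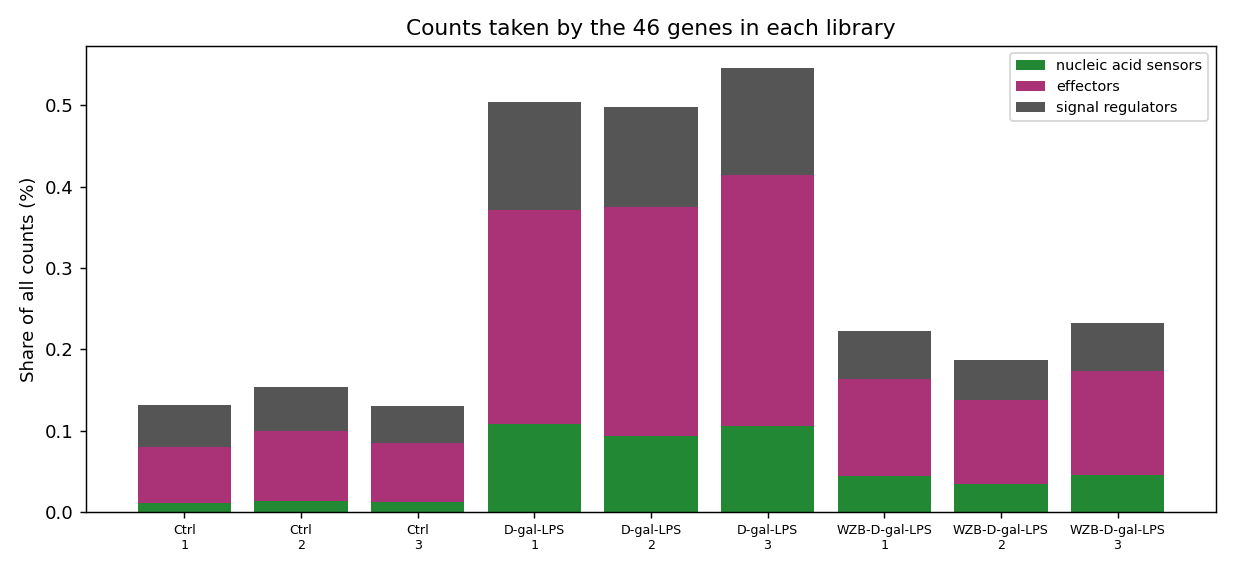
Share of all counts of a library, in %, that fell on the 46 genes, stacked by role, 1 bar per library. The 3 D-gal-LPS bars stand at 0.498 to 0.546%, above the WZB-D-gal-LPS bars at 0.187 to 0.232% and the Ctrl bars at 0.130 to 0.153%.

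All 11 sensors rose with D-gal-LPS, with log2 fold changes from 1.74 to 6.37 (median 3.19). With WZB, 10 of them were lower (median -1.0) and Oas2 was not called, and all 11 stayed above Ctrl (median 2.61). The oligoadenylate synthetases, which answer double-stranded RNA by making the second messenger that activates RNase L, held the gene with the largest rise of the 46 genes. Oas3 had 0.984, 0.784 and 0.73 CPM in Ctrl, 69.6, 70.8 and 67.3 in D-gal-LPS, and 28.1, 30.3 and 29.4 in WZB-D-gal-LPS. Its Ctrl libraries were all under 1 CPM, and the 3 groups did not overlap. Over the alternatives run, the rise of Oas3 ran from 3.1 to 6.5 log2 units, beside 5.07 to 6.13 for Rsad2, so its rank depends on the processing. Oas3 rose by 6.37 ± 0.14 log2 units with D-gal-LPS (edgeR adjusted p = 1.62e-12) and fell by 1.24 ± 0.10 with WZB added (edgeR adjusted p = 4.42e-06). Oas1a had 2.77, 2.59 and 2.76 CPM in Ctrl, 46.9, 46.5 and 51.8 in D-gal-LPS, and 24.4, 24.2 and 24.9 in WZB-D-gal-LPS. Its WZB-D-gal-LPS libraries lay close together, below all D-gal-LPS and above all Ctrl libraries. Oas1a rose by 4.15 ± 0.12 log2 units with D-gal-LPS (edgeR adjusted p = 7.7e-12) and fell by 0.98 ± 0.10 with WZB added (edgeR adjusted p = 1.89e-05). Oas1g, a close copy of Oas1a, rose by 4.02 ± 0.21 and fell by 1.10 ± 0.17 log2 units with WZB. Oas2 had 5.23, 4.95 and 6.93 CPM in Ctrl, 54.5, 47.8 and 54.9 in D-gal-LPS, and 40.5, 23.4 and 41 in WZB-D-gal-LPS. Its replicate 2 of WZB-D-gal-LPS was low beside the other 2 libraries of that group. Oas2 rose with D-gal-LPS (3.19 ± 0.22, edgeR adjusted p = 4.6e-07), and its value with WZB just missed the threshold (-0.58 ± 0.20, edgeR adjusted p = 0.0506), which it passed in 11 of 19 alternatives. In the deposited table the 4 Oas genes lie at chr5:120896256-120907521, chr5:120876142-120887613, chr5:120730333-120749853 and chr5:120753098-120777661.

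Sensors of DNA and of Z-form nucleic acids rose as well. Ifi204, a DNA-binding protein of the PYHIN family (chr1:173747293-173766943), had 5.72, 3.8 and 5.52 CPM in Ctrl, 239, 223 and 243 in D-gal-LPS, and 86.5, 71.7 and 97.6 in WZB-D-gal-LPS. Per length it had the highest level of the sensors in D-gal-LPS, 62.1 ± 4.34 FPKM (SD, n = 3), from 1.37 ± 0.265 FPKM in Ctrl. Its 3 groups did not overlap. Ifi204 rose by 5.55 ± 0.16 log2 units with D-gal-LPS (edgeR adjusted p = 4.66e-11) and fell by 1.46 ± 0.13 with WZB added (edgeR adjusted p = 1.76e-05). Ifi203, of the same family, rose by 4.17 ± 0.18 and fell by 1.24 ± 0.16 log2 units with WZB. Zbp1, which binds Z-form nucleic acids and can start necroptosis, had 15.9, 20.6 and 15.3 CPM in Ctrl, 138, 87 and 101 in D-gal-LPS, and 66.4, 37.5 and 59.6 in WZB-D-gal-LPS. The Zbp1 libraries were spread in both injured groups, without overlap between groups. Zbp1 rose by 2.66 ± 0.27 log2 units with D-gal-LPS (edgeR adjusted p = 5.28e-05) and fell by 1.0 ± 0.25 with WZB added (edgeR adjusted p = 0.0198). The call with WZB was lost when only those 2 groups were fitted (edgeR adjusted p = 0.0503).

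With D-gal-LPS, sensors of viral RNA in the cytosol had smaller log2 fold changes than Oas1a, Oas1g, Oas2 and Oas3, a difference that was not tested, while with WZB the values of these genes overlapped. Ddx58, which encodes RIG-I, rose by 1.74 ± 0.12 and fell by 0.96 ± 0.12 log2 units. Ifih1, which encodes MDA5, rose by 2.20 ± 0.14 and fell by 1.05 ± 0.13 log2 units. Both signal through the adaptor MAVS. Dhx58, which encodes their regulator LGP2, rose by 2.01 ± 0.21 and fell by 0.90 ± 0.21 log2 units. Eif2ak2, which encodes the kinase PKR that halts translation, rose by 2.04 ± 0.12 and fell by 0.91 ± 0.11 log2 units. All 4 stayed above Ctrl with WZB, by 0.78 to 1.15 log2 units.

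Of the 22 effectors, 19 rose with D-gal-LPS, 2 fell and Ifit2 was not called, with a median log2 fold change of 3.12. With WZB, 18 were lower and Ifit2, Bst2, Apol9a and Apol9b were not called (median -0.97). Against Ctrl, 18 were higher and 2 lower in WZB-D-gal-LPS (median 1.82). Rsad2 encodes viperin, an enzyme that turns CTP into a chain terminator of viral RNA synthesis, and had 6.21, 5.19 and 4.38 CPM in Ctrl, 319, 346 and 341 in D-gal-LPS, and 73.6, 61.6 and 88.3 in WZB-D-gal-LPS. The 3 groups did not overlap, and the WZB libraries stood nearer to Ctrl than to D-gal-LPS on the CPM scale. Rsad2 rose by 6.00 ± 0.16 log2 units with D-gal-LPS (edgeR adjusted p = 2.63e-11) and fell by 2.17 ± 0.13 with WZB added (edgeR adjusted p = 2.1e-06). Cmpk2, its neighbour on the chromosome, encodes a mitochondrial nucleotide kinase and had 3.2, 3.92 and 3.23 CPM in Ctrl, 76.2, 79.4 and 79.4 in D-gal-LPS, and 21.7, 20.5 and 22.4 in WZB-D-gal-LPS. Its libraries lay close together in every group. Cmpk2 rose by 4.50 ± 0.12 log2 units with D-gal-LPS (edgeR adjusted p = 4.8e-12) and fell by 1.86 ± 0.10 with WZB added (edgeR adjusted p = 1.23e-06). Rsad2 and Cmpk2 had the largest called falls with WZB of the 46 genes, and lay at chr12:26442753-26456452 and chr12:26469204-26479835. With WZB, 21.0% of the CPM rise of Rsad2 over Ctrl and 24.1% of that of Cmpk2 was left.

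Isg15, a ubiquitin-like protein that is joined to other proteins and is also secreted, had 7.75, 13.6 and 8.65 CPM in Ctrl, 107, 104 and 114 in D-gal-LPS, and 58.2, 50.7 and 54.7 in WZB-D-gal-LPS. Its 3 groups did not overlap. Isg15 rose by 3.44 ± 0.18 log2 units with D-gal-LPS (edgeR adjusted p = 1.97e-08) and fell by 0.99 ± 0.16 with WZB added (edgeR adjusted p = 0.000955). Ifit3 is a relative of the RNA-binding Ifit1. Ifit3 had 11.9, 14.7 and 14.6 CPM in Ctrl, 209, 219 and 238 in D-gal-LPS, and 86, 75.8 and 89.4 in WZB-D-gal-LPS. Ifit3 also showed no overlap between groups. Ifit3 rose by 4.01 ± 0.11 log2 units with D-gal-LPS (edgeR adjusted p = 7.41e-12) and fell by 1.41 ± 0.10 with WZB added (edgeR adjusted p = 2.1e-06). Ifit1, which binds RNA that lacks cap methylation, rose by 3.29 ± 0.13 and fell by 1.35 ± 0.12 log2 units with WZB. Per length, the highest levels in D-gal-LPS were those of Bst2 (174 ± 12.7 FPKM), Isg15 (148 ± 10.1 FPKM) and Ifit3 (131 ± 9.54 FPKM), each a mean ± SD of 3 libraries. Of these, Bst2 stood at 125 ± 9.04 FPKM in Ctrl, Isg15 at 14.3 ± 4.79 and Ifit3 at 8.46 ± 1.08 FPKM.

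The other effectors that rose, Bst2 aside, did so by 0.93 to 4.50 log2 units. Mx1, a GTPase against influenza viruses whose protein is defective in most inbred mouse strains, rose by 4.32 ± 0.18 and fell by 1.56 ± 0.15 log2 units with WZB. Its neighbour Mx2, which the deposited table calls a polymorphic pseudogene, rose by 0.93 ± 0.17, and its fall with WZB (-0.51 ± 0.17, edgeR adjusted p = 0.0385) was lost in 4 of 19 alternatives, among them the fits without D-gal-LPS replicate 1 or 3 or WZB-D-gal-LPS replicate 2 (adjusted p = 0.0922 to 0.132). Oasl2, a member of the oligoadenylate synthetase family, had 9.04, 8.08 and 9.85 CPM in Ctrl, 132, 231 and 247 in D-gal-LPS, and 107, 105 and 125 in WZB-D-gal-LPS. D-gal-LPS replicate 1 of Oasl2 was low and close to the WZB libraries, without overlap. Oasl2 rose by 4.50 ± 0.26 log2 units with D-gal-LPS (edgeR adjusted p = 1.28e-06) and fell by 0.85 ± 0.22 with WZB added (edgeR adjusted p = 0.0208). That fall was not called without WZB-D-gal-LPS replicate 1 (adjusted p = 0.0746) or 2 (adjusted p = 0.0823), with no filter on low counts (0.0519) or when only those 2 groups were fitted (0.0585). Isg20, an RNA exonuclease, rose by 3.74 ± 0.17 log2 units, and Sp100, of the nuclear bodies, by 3.64 ± 0.10. Samd9l, which restrains translation, rose by 2.94 ± 0.12, and Rnf213, a very large ubiquitin ligase, by 2.25 ± 0.10. These 4 genes fell by 0.95 to 1.25 log2 units with WZB. Ifi44 rose by 3.90 ± 0.24, Xaf1, an antagonist of the caspase inhibitor XIAP, by 2.24 ± 0.16, and Rtp4 by 1.91 ± 0.14 log2 units. Parp12, a zinc-finger member of the PARP family, rose by 1.73 ± 0.15, and Adar, which edits adenosines in double-stranded RNA, by 1.52 ± 0.12. These 5 genes fell by 0.58 to 0.93 log2 units with WZB, though the call of Ifi44 was lost without D-gal-LPS replicate 1 (adjusted p = 0.0511). Lgals3bp, a secreted glycoprotein, had 49.7, 48.8 and 31 CPM in Ctrl, 163, 262 and 271 in D-gal-LPS, and 74.6, 108 and 123 in WZB-D-gal-LPS. D-gal-LPS replicate 1 was low among its group, above all WZB libraries. Lgals3bp rose with D-gal-LPS (2.43 ± 0.31, edgeR adjusted p = 0.000391) and was lower with WZB (-1.18 ± 0.29, edgeR adjusted p = 0.0232). That fall was not called without D-gal-LPS replicate 2 or 3 or without WZB-D-gal-LPS replicate 1 or 2 (adjusted p = 0.0535 to 0.0716).

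Apol9b, Bst2 and Apol9a had the highest levels per length of the effectors in Ctrl. Apol9b had 189, 232 and 212 CPM in Ctrl, 85.8, 82.6 and 88.7 in D-gal-LPS, and 83.1, 71.9 and 75.9 in WZB-D-gal-LPS. Apol9a had 77.4, 120 and 98.2 CPM in Ctrl, 39.6, 37.1 and 40 in D-gal-LPS, and 31.6, 31.2 and 28.8 in WZB-D-gal-LPS. Both were highest in all Ctrl libraries. With D-gal-LPS Apol9a fell by 1.34 ± 0.13 log2 units (edgeR adjusted p = 1.42e-06) and Apol9b by 1.30 ± 0.09 (edgeR adjusted p = 4.54e-08). With WZB added neither was called, at -0.35 ± 0.13, edgeR adjusted p = 0.0644 for Apol9a and -0.16 ± 0.09, edgeR adjusted p = 0.229 for Apol9b, though Apol9a was called lower in 11 of 19 alternatives. Per length, Apol9b was the highest of the 46 genes in Ctrl, with 147 ± 17.6 FPKM. These 2 apolipoprotein L genes are close copies, and their reads may not count as separate evidence. Bst2, which encodes tetherin, a protein that holds budding virus at the cell surface, had 87.1, 93.9 and 85.3 CPM in Ctrl, 117, 137 and 134 in D-gal-LPS, and 154, 148 and 126 in WZB-D-gal-LPS. All D-gal-LPS libraries lay above Ctrl, and the WZB libraries overlapped those of D-gal-LPS. Bst2 rose by 0.54 ± 0.10 log2 units with D-gal-LPS (edgeR adjusted p = 0.000278), and its value with WZB was 0.14 ± 0.10, edgeR adjusted p = 0.301.

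Of the 13 signal regulators, 10 rose with D-gal-LPS, with a median log2 fold change of 0.81, and Stat2, Irf9 and Trim25 were not called. With WZB, 11 were lower (median -0.84), and Oasl1 and Trim25 were not called. Against Ctrl, 6 were higher and Stat2 was lower (median 0.34). Irf7, the factor that widens the interferon-alpha response, had 23.1, 34.2 and 26 CPM in Ctrl, 170, 168 and 177 in D-gal-LPS, and 88.7, 71.3 and 81.5 in WZB-D-gal-LPS. Its 3 groups did not overlap. Irf7 rose by 2.63 ± 0.13 log2 units with D-gal-LPS (edgeR adjusted p = 3.49e-09) and fell by 1.09 ± 0.13 with WZB added (edgeR adjusted p = 6.94e-05). Stat2 had 130, 120 and 136 CPM in Ctrl, 128, 107 and 128 in D-gal-LPS, and 63.5, 66.2 and 73.2 in WZB-D-gal-LPS. Its Ctrl and D-gal-LPS libraries overlapped, and all WZB libraries lay below both. Stat2 was not called with D-gal-LPS (-0.09 ± 0.09, edgeR adjusted p = 0.443), fell with WZB (-0.84 ± 0.09, edgeR adjusted p = 4.47e-05) and was below Ctrl (-0.92 ± 0.10, edgeR adjusted p = 2.28e-06). Irf9 had 31.9, 31.3 and 30.7 CPM in Ctrl, 35.5, 36.8 and 37.6 in D-gal-LPS, and 31.8, 25.5 and 31 in WZB-D-gal-LPS. Its values were 0.23 ± 0.10, edgeR adjusted p = 0.0761 with D-gal-LPS and -0.31 ± 0.10, edgeR adjusted p = 0.0387 with WZB, and the second call was lost in 8 of 19 alternatives. Among the lost ones were the fits without Ctrl replicate 3, D-gal-LPS replicates 1 or 3, or WZB-D-gal-LPS replicates 2 or 3 (adjusted p = 0.0501 to 0.151). Stat2 and Irf9, partners in ISGF3, were the members lower with WZB for which no rise had been called, but for Irf9 all D-gal-LPS libraries lay above Ctrl and a rise was called in 6 of 19 alternatives (adjusted p down to 0.0319).

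Among the other regulators, Trim30a, which in mice restrains signalling from Toll-like receptors, had 5.35, 6.52 and 8.03 CPM in Ctrl, 166, 156 and 166 in D-gal-LPS, and 69.3, 65.3 and 73.6 in WZB-D-gal-LPS. Its 3 groups did not overlap. Trim30a rose by 4.61 ± 0.13 log2 units with D-gal-LPS (edgeR adjusted p = 9.08e-12) and fell by 1.23 ± 0.11 with WZB added (edgeR adjusted p = 1.02e-05). Usp18, which removes Isg15 from proteins and blocks the interferon receptor, had 10.5, 10.3 and 9.64 CPM in Ctrl, 56.4, 59.3 and 64.7 in D-gal-LPS, and 22.9, 19.8 and 20.8 in WZB-D-gal-LPS. The Usp18 libraries with WZB lay nearer to Ctrl than to D-gal-LPS. Usp18 rose by 2.57 ± 0.11 log2 units with D-gal-LPS (edgeR adjusted p = 3.05e-10) and fell by 1.5 ± 0.10 with WZB added (edgeR adjusted p = 2.1e-06). Herc6, the main ligase for Isg15 in mice, had 13.7, 11 and 11.1 CPM in Ctrl, 104, 95 and 97 in D-gal-LPS, and 41.5, 33.6 and 39.4 in WZB-D-gal-LPS. Herc6 did not overlap between groups either. Herc6 rose by 3.04 ± 0.12 log2 units with D-gal-LPS (edgeR adjusted p = 1.32e-10) and fell by 1.37 ± 0.11 with WZB added (edgeR adjusted p = 4.52e-06). Parp14, an ADP-ribosyltransferase, had 43.5, 42.3 and 44.6 CPM in Ctrl, 258, 249 and 262 in D-gal-LPS, and 114, 94.7 and 111 in WZB-D-gal-LPS. Its D-gal-LPS libraries were within a narrow range. Parp14 rose by 2.56 ± 0.09 log2 units with D-gal-LPS (edgeR adjusted p = 3.48e-11) and fell by 1.26 ± 0.08 with WZB added (edgeR adjusted p = 2.1e-06).

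Another 4 regulators rose by 0.40 to 0.81 log2 units, fell with WZB, and were not called against Ctrl. Parp9 and Dtx3l, which form a complex that modifies histones and viral proteins, rose by 0.61 ± 0.10 and 0.68 ± 0.11 log2 units. They fell by 0.73 ± 0.10 and 0.63 ± 0.11 log2 units with WZB, and their values against Ctrl were -0.12 ± 0.10 and 0.05 ± 0.11, the latter -0.20 with total-count scaling. Nmi and Ifi35, which bind each other, rose by 0.81 ± 0.16 and 0.40 ± 0.10 log2 units. Ifi35 fell by 0.62 ± 0.10 log2 units with WZB, and its value against Ctrl was -0.21 ± 0.10 (edgeR adjusted p = 0.0875). Against Ctrl, Ifi35 was called lower in 6 of 19 alternatives (adjusted p down to 0.0011), among them the fits without D-gal-LPS replicate 2 (0.0349) or WZB-D-gal-LPS replicate 2 (0.0378), and Parp9 in 2 (0.00987 with total-count scaling and 0.0193 on FPKM). Nmi had 15.4, 15.6 and 13.3 CPM in Ctrl, 24.4, 25.9 and 27 in D-gal-LPS, and 24.1, 14.1 and 17.6 in WZB-D-gal-LPS. Its WZB-D-gal-LPS replicate 1 stood near the D-gal-LPS libraries, and the fall (-0.47 ± 0.16, edgeR adjusted p = 0.046) was lost in 9 of 19 alternatives. Those included the fits without WZB-D-gal-LPS replicate 2 (adjusted p = 0.17), D-gal-LPS replicate 3 (0.132), WZB-D-gal-LPS replicate 3 (0.13), D-gal-LPS replicate 1 (0.0785), Ctrl replicate 1 (0.0559) and Ctrl replicate 3 (0.0528).

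**Figure D3:**
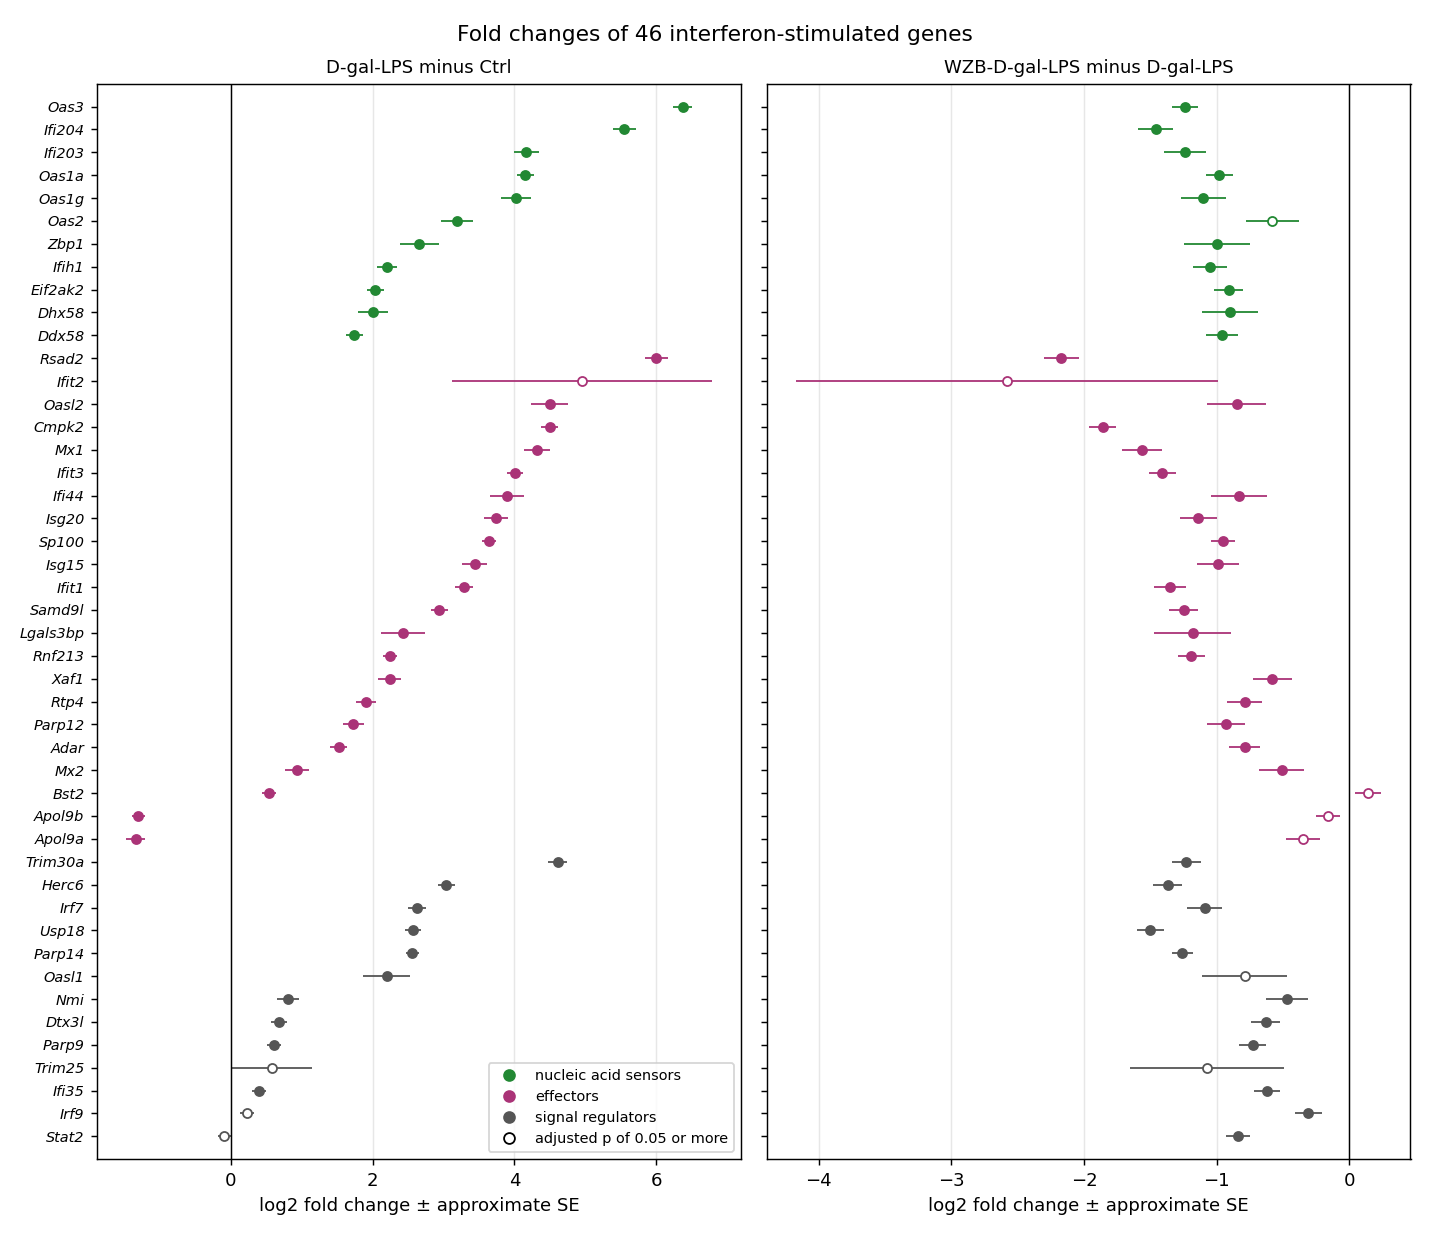
Log2 fold change of each gene with its approximate standard error (edgeR, n = 3 libraries a group), for D-gal-LPS against Ctrl on the left and WZB-D-gal-LPS against D-gal-LPS on the right, coloured by role; open circles have an adjusted p of 0.05 or more. All 11 sensors lie at 1.74 or above on the left, the regulators reach down to -0.09, and Rsad2 at -2.17 and Cmpk2 at -1.86 are the lowest filled points on the right.

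For the 40 genes that rose, the rise left with WZB was computed on CPM means as the rise over Ctrl with WZB in percent of the rise without it. The median was 36.1% over all 40 genes. Sensors had a median of 39.1% (30.6 to 62.7%, n = 11), effectors 35.5% (21.0 to 133%, n = 19) and signal regulators 30% (-42.6 to 46.3%, n = 10). The ranges of the roles overlapped, and the differences between roles were not tested, since genes are not replicates. Dtx3l (6.06%), Parp9 (-15.7%) and Ifi35 (-42.6%) were the 3 lowest, and Bst2 (133%) was the highest.

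**Figure D4:**
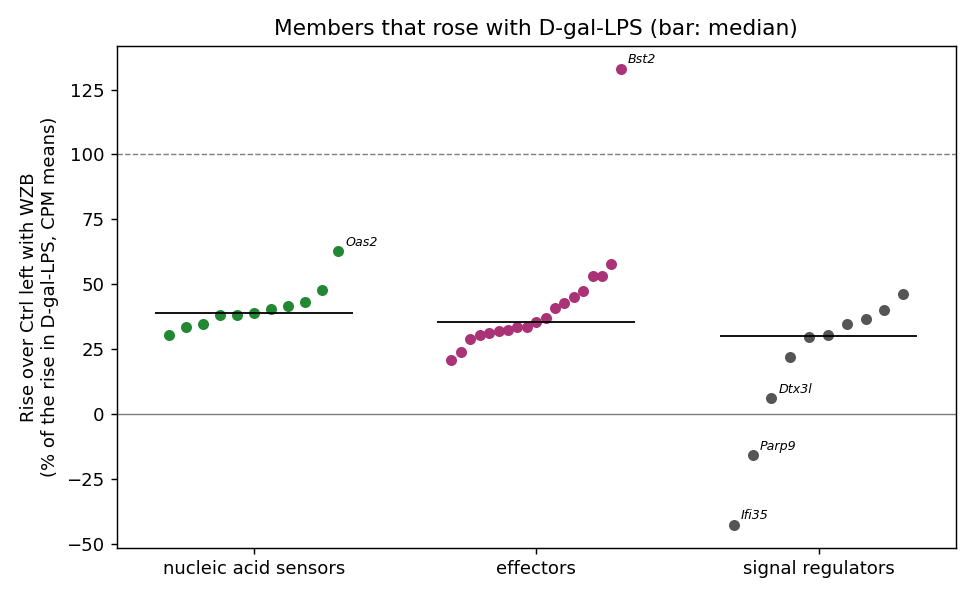
Rise over Ctrl in WZB-D-gal-LPS in percent of the rise in D-gal-LPS (CPM means of 3 libraries), 1 point per gene for the 40 genes that rose, by role, with the median as a bar. Medians lie at 39.1, 35.5 and 30%, Bst2 lies above 100% and Parp9 and Ifi35 lie below 0.

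A few genes were uneven within a group. Ifit2 is a relative of Ifit1 and Ifit3 that favours apoptosis. Ifit2 had 86, 48 and 50 raw counts in Ctrl, 121, 2477 and 2754 in D-gal-LPS, and 28, 19 and 840 in WZB-D-gal-LPS. D-gal-LPS replicate 1 and WZB-D-gal-LPS replicates 1 and 2 were far below the other libraries of their groups. Ifit1, its neighbour, had 155, 206 and 225 raw counts in Ctrl, 1886, 1680 and 1865 in D-gal-LPS, and 523, 574 and 797 in WZB-D-gal-LPS. The same 3 libraries were not set apart for Ifit1 or Ifit3. Ifit2 was not called in any comparison, with 4.95 ± 1.83, edgeR adjusted p = 0.0579 for D-gal-LPS and -2.58 ± 1.59, edgeR adjusted p = 0.29 with WZB, and it was called higher without D-gal-LPS replicate 1 (5.51, edgeR adjusted p = 0.0374) and without WZB-D-gal-LPS replicate 3 (4.95, edgeR adjusted p = 0.0224). Trim25, the ubiquitin ligase that activates RIG-I, had 1117, 1206 and 255 raw counts in Ctrl, 1381, 1042 and 1387 in D-gal-LPS, and 530, 417 and 664 in WZB-D-gal-LPS. Ctrl replicate 3 was low, and all WZB libraries lay below all D-gal-LPS libraries. Trim25 was not called with WZB (-1.07 ± 0.58, edgeR adjusted p = 0.232), but it was lower without Ctrl replicate 3 (-1.07, edgeR adjusted p = 5.2e-05) and when only those 2 groups were fitted (edgeR adjusted p = 5.13e-05). Its value against Ctrl was -0.49 (edgeR adjusted p = 0.495), and without Ctrl replicate 3 it was lower there too (-0.95, edgeR adjusted p = 3.91e-05). With D-gal-LPS its value was 0.58 (edgeR adjusted p = 0.43), 0.11 without Ctrl replicate 3 and 1.20 with voom, with no call. Oasl1, which in mice represses translation of Irf7, had 163, 211 and 194 raw counts in Ctrl, 682, 1207 and 550 in D-gal-LPS, and 451, 365 and 461 in WZB-D-gal-LPS. D-gal-LPS replicate 2 was high. Oasl1 rose with D-gal-LPS (2.20 ± 0.33, edgeR adjusted p = 0.00072), and its value with WZB was -0.79 ± 0.32, edgeR adjusted p = 0.108, with a call in 4 of 19 alternatives, namely without D-gal-LPS replicate 3 (-1.02, edgeR adjusted p = 0.0245), with total-count scaling (0.0441), on FPKM with limma (0.0346) and with DESeq2 (0.00758).

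**Figure D5:**
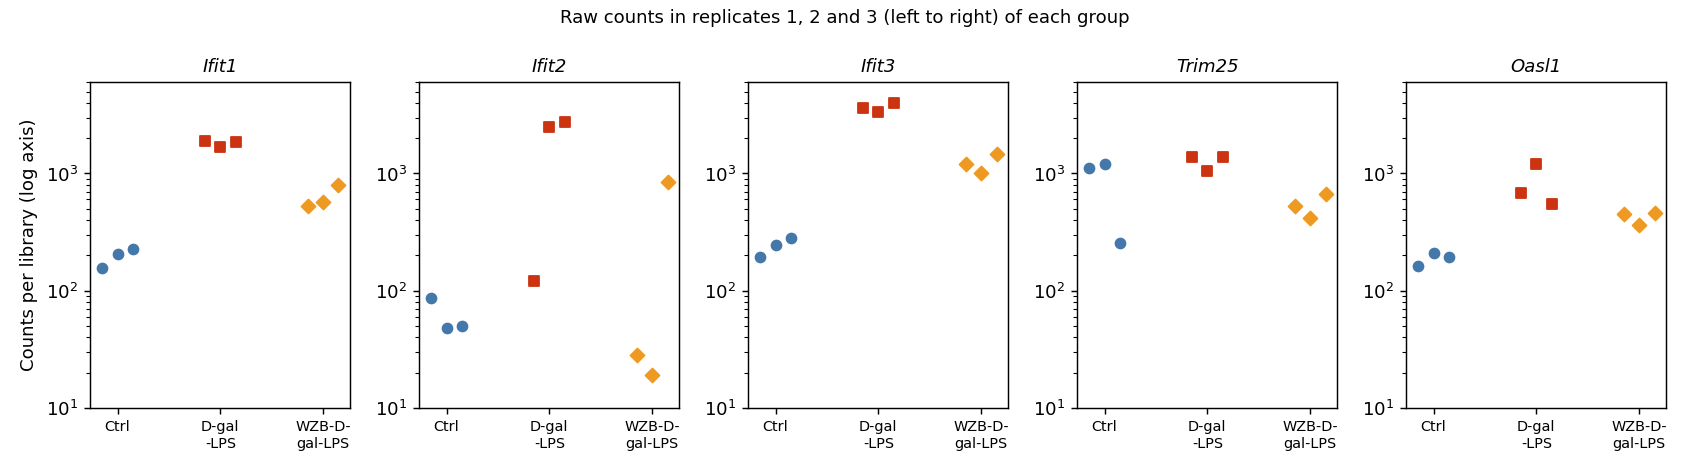
Raw counts of Ifit1, Ifit2, Ifit3, Trim25 and Oasl1 on a log axis, 1 point per library, with replicates 1, 2 and 3 from left to right in each group. Ifit2 falls to 121 counts in D-gal-LPS replicate 1 and to 28 and 19 in WZB-D-gal-LPS replicates 1 and 2, where Ifit1 and Ifit3 stay level, and Trim25 falls to 255 in Ctrl replicate 3.

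Transcripts of the interferons themselves were at or near the limit of counting. Of 21 interferon genes in the list, Ifng was the one that passed the filter on low counts. Ifnb1, the gene of interferon-beta, had 0, 0 and 0 counts in Ctrl, 0, 2 and 0 in D-gal-LPS, and 0, 0 and 0 in WZB-D-gal-LPS. A count of 0 allows up to 3 counts, or 0.166 to 0.199 CPM in these libraries, for counting error only. Ifnab had 0, 0 and 0 counts in Ctrl, 0, 0 and 2 in D-gal-LPS, and 12, 1 and 5 in WZB-D-gal-LPS, and was not tested. Ifng, the gene of interferon-gamma, had 2, 0 and 0 counts in Ctrl, 17, 19 and 21 in D-gal-LPS, and 4, 3 and 14 in WZB-D-gal-LPS. Its D-gal-LPS libraries lay above all others. Ifng rose with D-gal-LPS (4.65 ± 0.88, edgeR adjusted p = 0.000497), was not called with WZB (-1.28 ± 0.61, edgeR adjusted p = 0.136), and stayed above Ctrl (3.37 ± 1.0, edgeR adjusted p = 0.0102), a call lost without WZB-D-gal-LPS replicate 3 (adjusted p = 0.0775).

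Other genes of the pathway and cell markers were counted in the same way, and the counts below stand beside 29.1% of all tested genes higher and 29.3% lower with D-gal-LPS, and 13.8% higher and 14.7% lower with WZB. Of 16 inducing receptors and adaptors, which lead from LPS or nucleic acids to interferon, 11 rose and 3 fell with D-gal-LPS, and 6 fell with WZB. Cd14, a co-receptor of LPS, rose by 4.57 ± 0.16 log2 units and Tlr3, a receptor for double-stranded RNA, by 2.56 ± 0.19. With WZB Cd14 fell by 1.0 ± 0.13 and Tlr3 by 1.28 ± 0.18. Ticam1, which encodes TRIF, had 17.7, 14.8 and 16.3 CPM in Ctrl, 5.03, 5.93 and 4.9 in D-gal-LPS, and 5.38, 3.84 and 3.44 in WZB-D-gal-LPS. It fell with D-gal-LPS (-1.62 ± 0.18, edgeR adjusted p = 4.43e-06) and was not called with WZB (-0.33 ± 0.19, edgeR adjusted p = 0.234). Irf3 also fell with D-gal-LPS (-0.69 ± 0.11, edgeR adjusted p = 0.000143), and its value with WZB was -0.10 ± 0.11, edgeR adjusted p = 0.542.

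Of 9 genes for interferon receptors and their kinases, 7 rose with D-gal-LPS and 2 fell with WZB. The receptor chain Ifnar1 had 27.7, 25.3 and 33.9 CPM in Ctrl, 37.3, 28.7 and 27.4 in D-gal-LPS, and 26.4, 26.1 and 20.8 in WZB-D-gal-LPS. Ifnar1 was called in neither comparison, with 0.10 ± 0.15, edgeR adjusted p = 0.586 and -0.35 ± 0.15, edgeR adjusted p = 0.104. The other chain, Ifnar2, rose with D-gal-LPS (0.62 ± 0.07, edgeR adjusted p = 7.7e-06) and had -0.08 ± 0.07, edgeR adjusted p = 0.426 with WZB. Il10rb, a receptor chain shared by interferon-lambda and interleukin-10, rose by 1.95 ± 0.15 log2 units. The kinases Jak1 and Jak2 rose by 0.78 ± 0.07 and 2.76 ± 0.11 log2 units, and fell by 0.68 ± 0.07 and 1.15 ± 0.10 with WZB.

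Of 9 transcription factors outside the member list, 6 rose and Irf2 fell with D-gal-LPS, and 5 fell with WZB. Nfkb1, of the NF-kB family, rose by 1.84 ± 0.13 and fell by 0.91 ± 0.13 log2 units with WZB. Stat3 was not called with D-gal-LPS (-0.11 ± 0.10, edgeR adjusted p = 0.375) and fell with WZB (-0.63 ± 0.10, edgeR adjusted p = 0.000462).

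Among 8 feedback inhibitors, 6 rose with D-gal-LPS and 5 fell with WZB. Il10, an anti-inflammatory cytokine, had 0.0615, 0.0603 and 0 CPM in Ctrl, 8.61, 9.03 and 7.97 in D-gal-LPS, and 2.26, 2.19 and 3.69 in WZB-D-gal-LPS. It rose with D-gal-LPS and fell by 1.64 ± 0.26 log2 units with WZB (edgeR adjusted p = 0.000444). Ptpn6, a phosphatase of blood cells, rose by 1.87 ± 0.10 and fell by 0.60 ± 0.09 log2 units. Of 10 tested genes that lean on interferon-gamma, 9 rose and 7 fell with WZB. Cd274, which encodes PD-L1, had 2.64, 2.47 and 2.24 CPM in Ctrl, 115, 125 and 116 in D-gal-LPS, and 44.1, 41 and 50.4 in WZB-D-gal-LPS. Cd274 rose by 5.60 ± 0.13 log2 units with D-gal-LPS (edgeR adjusted p = 1.75e-12) and fell by 1.39 ± 0.10 with WZB added (edgeR adjusted p = 2.1e-06). Cxcl10, a chemokine for T cells, rose by 7.01 ± 0.25 and fell by 1.24 ± 0.19 log2 units, and Nos2, the inducible nitric oxide synthase, fell by 2.17 ± 0.33 with WZB. Of 8 genes of nucleic acid decay, 5 rose and 2 fell with D-gal-LPS, and 3 fell with WZB. Samhd1, which depletes nucleotides, rose by 3.68 ± 0.10 and fell by 0.96 ± 0.09 log2 units. Dnase1l3, a secreted nuclease, rose by 3.02 ± 0.13 and fell by 1.06 ± 0.12.

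Markers of blood and non-parenchymal cells moved with these groups. In bulk samples, fewer cells of a type and less RNA per cell cannot be told apart. Of 12 Kupffer cell and macrophage markers, 11 rose with D-gal-LPS and 11 fell with WZB, and their summed level was 152 to 159 CPM in Ctrl, 565 to 615 in D-gal-LPS and 279 to 383 in WZB-D-gal-LPS. All 8 tested monocyte markers rose and 4 fell with WZB, with sums of 8.98 to 12.4, 204 to 215 and 119 to 140 CPM. Of 10 tested neutrophil markers, 9 rose and 6 fell with WZB, with sums of 221 to 250, 552 to 619 and 351 to 394 CPM. Lcn2, which encodes lipocalin-2, held most of the Ctrl sum (215 to 243 CPM) and was not called with D-gal-LPS, and without it the sums were 6.25 to 6.39, 353 to 380 and 249 to 274 CPM. S100a8, S100a9, Ly6g and Cxcr2 were not called with WZB. Of 7 tested markers of plasmacytoid dendritic cells, which secrete much interferon-alpha, 6 rose with D-gal-LPS, and all 7 were not called with WZB. Their summed level was 7.5 to 9.54, 36.6 to 71.6 and 39.1 to 43.7 CPM. The injured groups overlapped in that sum, most of which was Irf8, and without Irf8 they did not (1.84 to 2.59, 7.91 to 8.43 and 4.67 to 6.82 CPM). Of 12 tested lymphocyte markers (T, NK and B cells), 8 rose, and 2 fell and 1 rose with WZB, and their sums of 11.1 to 14, 32.7 to 39.4 and 29.5 to 43.7 CPM overlapped between the injured groups, while without Ighm they were 4.55 to 6.88, 19.4 to 24.7 and 12 to 17.5 CPM. Of 10 sinusoidal endothelial markers, 9 rose, and 5 fell and 1 rose with WZB, with sums of 119 to 143, 546 to 578 and 297 to 361 CPM. Of 10 stellate cell markers, 9 rose, and 5 fell and 2 rose with WZB, with sums of 127 to 133, 1160 to 1250 and 657 to 750 CPM. All 7 red blood cell markers rose and 6 fell with WZB, with sums of 110 to 140, 3590 to 4470 and 423 to 714 CPM. The sums of macrophage, monocyte, neutrophil, endothelial, stellate and red blood cell markers had the same order of groups, without overlap, as the share of counts of the interferon-stimulated genes, with or without the most abundant marker of each list. Cholangiocyte sums were 78.8 to 92.5, 163 to 231 and 175 to 252 CPM. Of 10 hepatocyte markers, 3 rose and 2 fell with D-gal-LPS, and 7 rose with WZB. No marker found in the table was at 0 in all 9 libraries. The part of these cells in the changes of the interferon-stimulated genes was not tested.

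Some members share sequence or overlap another gene, so their reads may have been divided between copies. Of the 50-base words of the longest coding transcript, 57.6% of Oas1a occurred in other genes, as did 54.7% of Oas1g, 57.5% of Apol9a, 51.4% of Apol9b, 51.2% of Ifit3 (all in Ifit3b) and 30.2% of Ifi204. For Herc6 it was 23.8%. Parp9 (chr16:35938470-35972605) and Dtx3l (chr16:35926511-35939151) overlap on opposite strands, as do Irf7 and Phrf1, while Ifi203 with Mndal and Irf9 with Rnf31 overlap on the same strand. Whether counting used strand was not given in the sources used here, so reads of overlapping genes cannot be told apart. Without Apol9a, Apol9b, Oas1a, Oas1g, Ifi203 and Ifi204, 36 of 40 genes rose with D-gal-LPS. That set did not follow the shares of words, since Ifit3 and Herc6 were kept and Ifi203, with 10.7%, was left out.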

How the data were processed

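RNA-seq of 9 mouse liver libraries was analysed from 1 deposited table. The counts per gene and library are whole numbers deposited by the authors, and were used for every test. The authors also deposited FPKM values, which were used for levels between genes and for 1 alternative on log2(FPKM + 1). Per the submitters' processing notes, tools included limma and R 4.1.2, and the build named is GRCm38.p4 (mm10). Which aligner, counter, annotation and strand setting were used was not given in the sources used here. Of 21 value columns, 3 matched no labelled sample and were not used here.

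Genes were kept by filterByExpr, which left 13583 genes with 99.93% of the reads, and libraries were scaled by TMM. One quasi-likelihood fit of all 9 libraries was made with edgeR 4.0.16 in R 4.3.3 (robust, 6 residual degrees of freedom). P-values of edgeR's quasi-likelihood test were adjusted by Benjamini-Hochberg across the tested genes, and an adjusted p under 0.05 was called. Approximate standard errors divide the log2 fold change by the root of the F statistic. Scripts were tested on simulated data. Alternatives used other scaling, filters, fits, DESeq2 1.42.0, limma 3.58.1 and each library left out. Replicates of a group had Pearson correlations from 0.9781 to 0.9855, and no pair was identical. Floors cover counting error only, while the standard errors and SDs include the spread among libraries.

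The genes and lists were chosen with earlier results of these data known. Values of each library were given for the 3 genes per role with the highest mean FPKM, the 3 with the smallest adjusted p with WZB, and those that were not called or went against the rest. The library values of Lgals3bp, Oasl2, Nmi and Ifit1 were added after they were seen. Motif windows and sequences are from RefSeq (GRCm38.p6), and 50-base words and overlaps from GENCODE transcripts.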

Additional observations from a re-analysis of the deposited data

How the results depend on the processing

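The number of genes that rose with D-gal-LPS was 40, and 34 to 42 over the alternatives run. The number lower with WZB was 39, with 19 when a log2 change of 1 or more was also asked and up to 43 otherwise, and the number above Ctrl with WZB was 35 (31 to 37). Leaving out 1 library each gave 40 to 41 with D-gal-LPS, 34 to 40 with WZB and 35 to 37 against Ctrl, with medians of 2.53 to 2.60, -1.11 to -0.94 and 1.35 to 1.58. The median with D-gal-LPS was 2.22 with limma on log2(FPKM + 1), a scale that shrinks low genes. The median with WZB was -1.18 with total-count scaling, and against Ctrl it was 1.22 with total-count scaling and 0.90 with limma on log2(FPKM + 1). The cause was not tested.

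No pairing by replicate number was seen, with correlations of deviations from -0.0763 to 0.0574 and a best match with the own number in 3 of 18 cases. With 3 libraries a group, a pairing could be missed. The replicate block gave 40, 38 and 36 genes, and medians of 2.56, -0.99 and 1.37.

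These values of single genes, none of them called, changed sign. Bst2 with WZB had -0.06 with total-count scaling and -0.06 on FPKM. Dtx3l against Ctrl had -0.20 with total-count scaling, -0.01 with the 5 CPM filter, -0.17 on FPKM and -0.01 with only the 2 groups. With 1 library left out, values against Ctrl ran from -0.05 to 0.13 for Dtx3l (below 0 without Ctrl replicate 3, D-gal-LPS replicate 2 or WZB-D-gal-LPS replicate 3), from -1.06 (without WZB-D-gal-LPS replicate 3) to 2.91 for Ifit2, and from -0.16 to 0.01 (without WZB-D-gal-LPS replicate 2) for Irf9. With D-gal-LPS they ran from -0.14 to 0.01 (without D-gal-LPS replicate 2) for Stat2 and from -0.05 (without D-gal-LPS replicate 1) to 0.23 for Ifnar1. Jak1 against Ctrl had -0.15 with total-count scaling and -0.14 on FPKM, and Trim25 had 0.14 with voom. The call of a gene stayed on its side in every alternative for 43 genes with D-gal-LPS, 33 with WZB and 38 against Ctrl.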
